A study of Homo sapiens with 6 samples.

Results

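The genes described here are those of the mitochondrial ribosomal proteins (MRPs), taken as every row of the deposited table whose symbol is MRPL or MRPS followed by a number and, at most, a letter A, B or C. There were 78 such genes among 22807, and 77 of them had a mean normalized value of at least 1 over the 6 libraries and could be tested. The cells were MDA-MB-453, a long-used line of breast carcinoma with amplified HER2 (HER2+), and 6 RNA libraries were sequenced, 3 of cells given *DUSP6* siRNA by transient transfection (labelled genotype DUSP6 KD) and 3 of cells given scrambled siRNA (labelled genotype WT). All 6 libraries came from the same line, grown in RPMI with serum and antibiotics. The comparison asked which mRNAs differed once *DUSP6*, a phosphatase of ERK kinases, was depleted. Different siRNAs were used within each group, it is not given which one went into which library, and the time after transfection is not given in the sources used here. Nothing in the labels says that the libraries came from separate cultures, so a p-value measures only the spread between these libraries.

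Mitochondria keep a ribosome of their own, the mitoribosome, which makes the few proteins encoded by mitochondrial DNA, all of them hydrophobic core subunits of the respiratory chain and ATP synthase. The mitoribosomal RNAs come from mitochondrial DNA, but every MRP is encoded in the nucleus, made in the cytosol and imported. The large subunit (MRPL proteins and a few MRPS proteins) forms the peptide bond, and the small subunit (most MRPS proteins) binds the mRNA and decodes it. Part of the MRPs descend from bacterial ribosomal proteins, and the others have no bacterial counterpart and were added during the evolution of mitochondria.

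The libraries held between 45546981 and 85729785 reads, and each tested MRP gene had from 427 to 25024 reads in a library. A normalized value is the reads of a gene per 1000000 reads of the library size scaled by TMM, a method that sets most genes equal between libraries, and values are given in the order of replicates 1, 2 and 3. The log2 fold change of value + 1, *DUSP6* siRNA over scrambled siRNA, is written log2FC. *DUSP6* itself had values of 209, 110 and 114 with scrambled siRNA and 39.4, 24.5 and 35.2 with *DUSP6* siRNA (log2FC -2.05, limma adjusted p = 3.09e-04). Of the markers of the line, *ERBB2* (HER2) ranged from 457 to 1068 and *KRT8* from 426 to 715 over the 6 libraries, whereas the leukocyte marker *PTPRC* was at most 0.0809 and the endothelial marker *PECAM1* at most 0.253. The fibroblast marker *COL1A1* was between 80.7 and 192, with a log2 fold change of 0.90, and *ERBB2*, *KRT8*, *KRT18*, *GATA3* and *FOXA1* were lower after *DUSP6* siRNA; the part of these shifts in the results that follow was not tested. The scrambled siRNA libraries varied more among themselves than the *DUSP6* siRNA libraries. For the tested MRP genes, the median SD on the log2 scale was 0.160 with scrambled siRNA and 0.0522 with *DUSP6* siRNA, and the SD was larger with scrambled siRNA for 64 of the 77. Over all genes tested these median SDs were 0.166 and 0.0804. Values are relative to the RNA of each library, so neither a change in cell number nor one in total RNA per cell can be seen in them.

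After *DUSP6* siRNA, the mRNAs of the mitoribosome did not move as 1 block. Of the 77 MRP genes, 18 were lower and 5 higher at a limma adjusted p under 0.05, and 54 were not called. In the same fit, 24.7% of all 12862 genes tested were lower and 19.7% higher, so the share of MRP genes that fell (23.4%) was near the background and the share that rose (6.49%) was below it. The changes were small: no MRP gene changed by more than 1 on the log2 scale, which 6.90% of all genes did, and the fold changes ran from -0.71 to 0.72 with a median of -0.10, beside a median of -0.01 for all genes. For 27 MRP genes all 3 *DUSP6* siRNA libraries lay below all 3 scrambled siRNA libraries and for 10 all lay above, or 35.1% and 13.0% of the 77, where 31.1% and 26.7% of all genes did so. Under quantile normalization 14 were lower and 9 higher. The counts also depended on single libraries. They were 9 lower and 3 higher without *DUSP6* siRNA replicate 1, 9 and 2 without replicate 2, and 8 and 2 without replicate 3, while 3 were higher without scrambled siRNA replicate 1, 27 were lower without replicate 2 and 9 were higher without replicate 3. The share lower did not stay near the background in these fits. Without *DUSP6* siRNA replicates 1, 2 and 3 in turn, 11.7%, 11.7% and 10.4% of the MRP genes were lower beside 19.1%, 18.1% and 18.0% of all genes, and without scrambled siRNA replicate 2 the shares were 35.1% and 24.7%. The share higher was below that of all genes in each of the 14 alternatives.

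**Figure D1:**
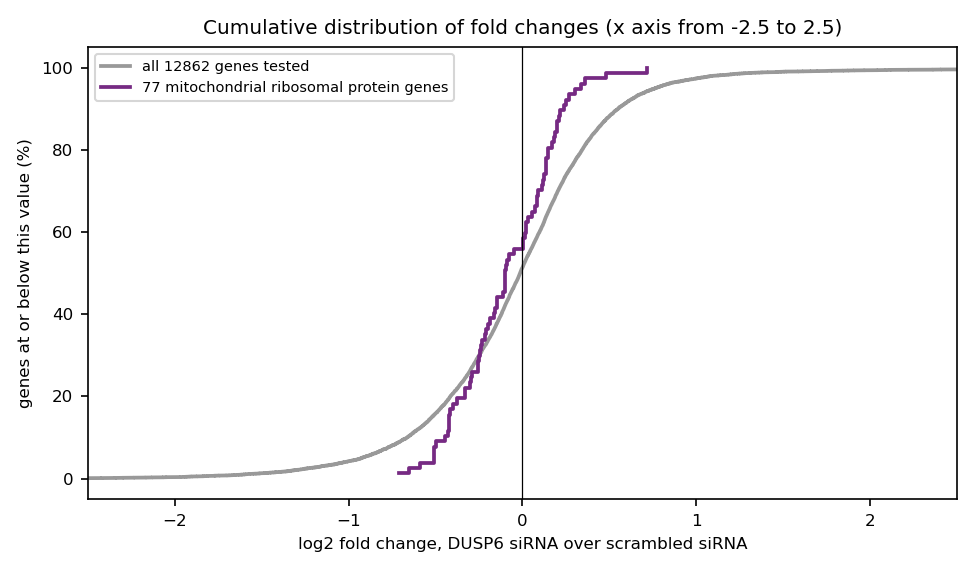
Cumulative share of genes (y axis, percent) at or below each log2 fold change (x axis) for the 77 MRP genes and all 12862 genes tested. The curve of the MRP genes is steeper, since they all lie between -0.71 and 0.72.

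The deepest falls in the large subunit were those of *MRPL37* and *MRPL45*. *MRPL37* (Entrez gene 51253, chromosome 1 of GRCh38 from 54200167 to 54225489), a large-subunit protein without a bacterial counterpart, had values of 167, 141 and 124 with scrambled siRNA and 87.8, 87.6 and 84.7 with *DUSP6* siRNA. Every *DUSP6* siRNA library lay well under the lowest scrambled siRNA library. Its mean fell from 144 ± 21.8 to 86.7 ± 1.73 (both SD, n = 3), a log2FC of -0.71 (SE 0.11, limma adjusted p = 0.00122), and it was called under all 14 alternatives tried. *MRPL45* (Entrez gene 84311, chromosome 17 from 38297168 to 38323211), which sits near the exit of the peptide tunnel on the side facing the inner membrane, had 34.5, 29.6 and 56.9 with scrambled siRNA and 25.2, 22.7 and 24.9 with *DUSP6* siRNA. The groups did not overlap, but scrambled siRNA replicate 3 stood far above the others. Its log2FC was -0.66 (SE 0.21, limma adjusted p = 0.0290). It shrank to -0.39 without scrambled siRNA replicate 3, and the call was lost without any 1 of the 3 *DUSP6* siRNA libraries, at adjusted p-values of up to 0.107. A pseudogene row, *MRPL45P2*, with values between 3.31 and 5.23, was lower too (log2FC -0.33, limma adjusted p = 0.0402), and reads may have been split between the copies, so both are uncertain.

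*MRPL49*, *MRPL39* and *MRPL46*, also mitochondria-specific proteins of the large subunit, fell by much the same amount. *MRPL49* went from 129 ± 7.89 to 90.4 ± 2.69 (both SD, n = 3), a log2FC of -0.51 (limma adjusted p = 0.00158). *MRPL39* had 29.0, 31.4 and 29.5 with scrambled siRNA and 20.3, 21.0 and 20.9 with *DUSP6* siRNA, so that both groups were tight and the gap between them was several times their spread (log2FC -0.51, limma adjusted p = 0.00230). *MRPL46* went from 22.2 ± 1.49 to 15.3 ± 0.283 (both SD, n = 3), a log2FC of -0.51 (limma adjusted p = 0.00338). These genes were called under all 14 alternatives.

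Among large-subunit proteins of bacterial descent, *MRPL16*, the counterpart of the bacterial L16 protein, fell from 38.6 ± 5.04 to 28.0 ± 0.599 (both SD, n = 3), a log2FC of -0.45 (limma adjusted p = 0.0105). *MRPL1*, the protein of the L1 stalk, fell by 0.42, and *MRPL12*, the counterpart of the L7/L12 stalk protein that recruits translation factors, also fell by 0.42 on the log2 scale. *MRPL12* ranged from 46.8 to 70.4 with scrambled siRNA and from 40.9 to 46.2 with *DUSP6* siRNA, so the groups all but touched (limma adjusted p = 0.0399), and its call was lost in 7 of 14 alternatives. *MRPL19* fell by 0.30 and *MRPL48*, which has no bacterial counterpart, by 0.29, the latter with a call lost in 8 of 14 alternatives, edgeR and the replicate block among them. The calls of *MRPL1*, *MRPL19* and *MRPL58* were lost in 4, 3 and 3. *MRPL58*, a peptidyl-tRNA hydrolase built into the large subunit, had 192, 184 and 165 with scrambled siRNA and 145, 142 and 141 with *DUSP6* siRNA (log2FC -0.33, limma adjusted p = 0.0143).

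**Figure D2:**
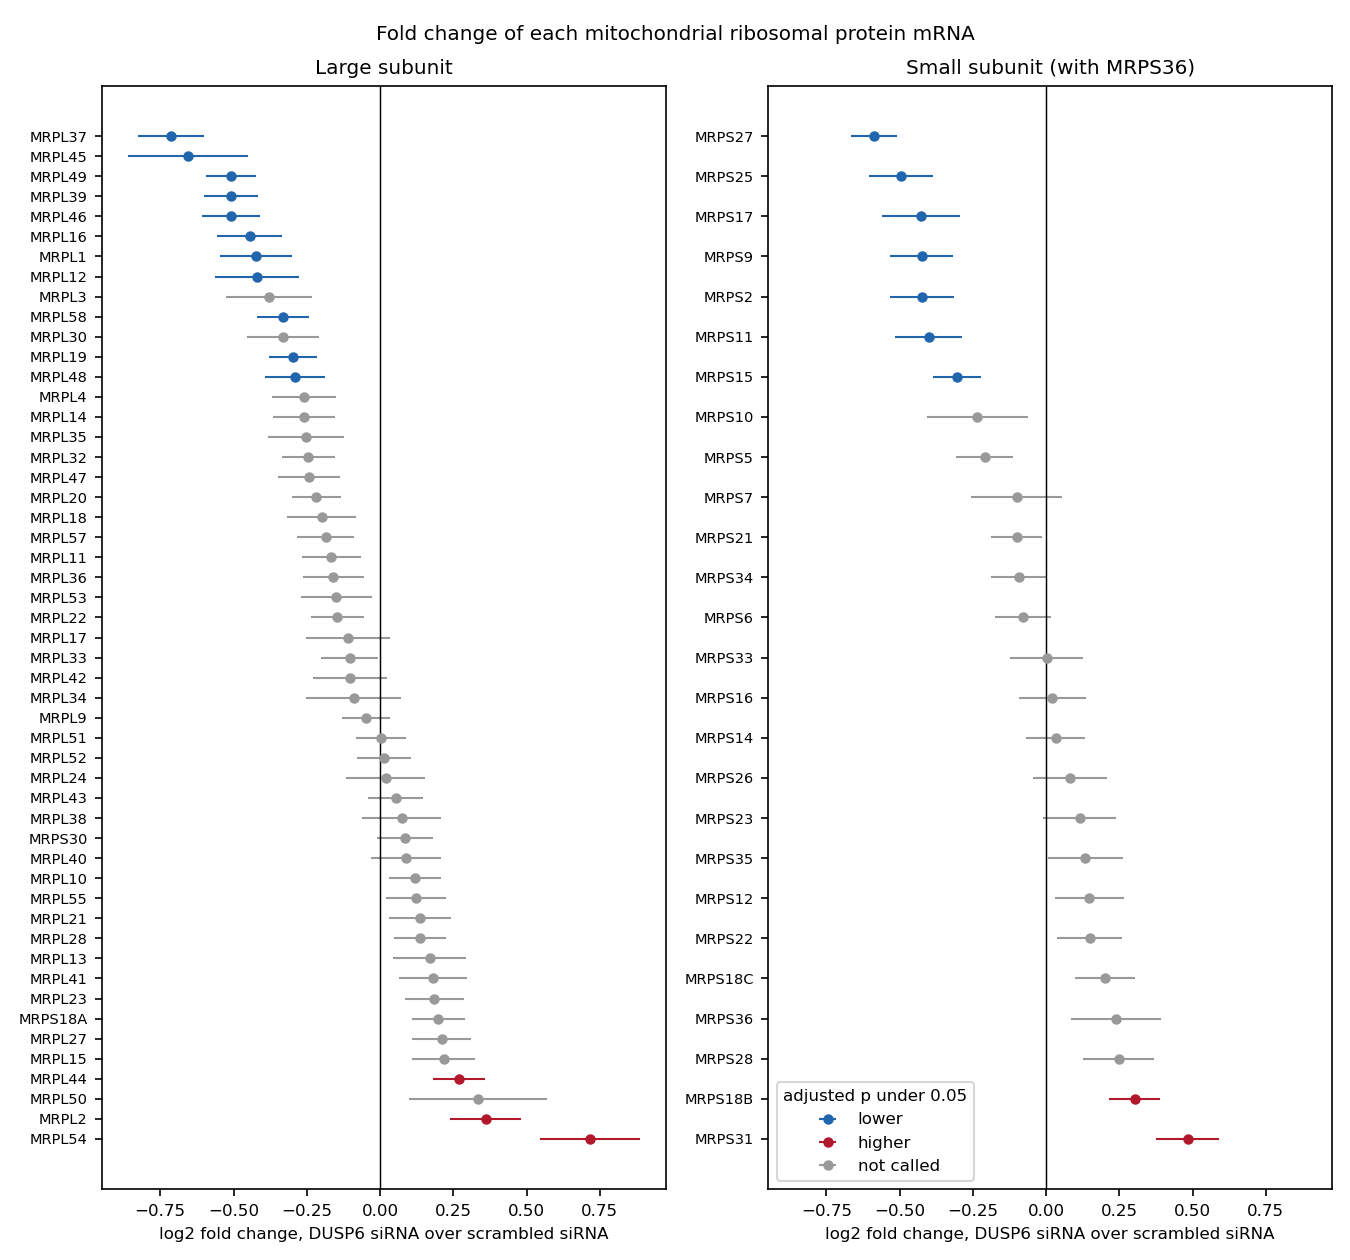
Log2 fold change on the log2(value + 1) scale (x axis) of each tested MRP gene, split by subunit, with *MRPS36* drawn beside the small subunit. Points are limma estimates from 3 against 3 libraries, bars are 1 standard error, and colors mark the 18 genes called lower and the 5 called higher.

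In the small subunit, 7 of 25 tested genes were lower and 2 higher (28% and 8%, beside 24.7% and 19.7% of all genes). *MRPS27* (Entrez gene 23107, chromosome 5 from 72219403 to 72320240), a pentatricopeptide repeat protein, had the smallest adjusted p of all MRP genes. Its values were 91.2, 91.0 and 92.9 with scrambled siRNA and 61.8, 59.99 and 60.3 with *DUSP6* siRNA. Both groups were tight, and the gap between them was many times the spread within either. The log2FC was -0.59 (SE 0.08, limma adjusted p = 5.10e-04), and the gene was called under all 14 alternatives. *MRPS25* fell from 60.1 ± 7.81 to 42.1 ± 1.03 (both SD, n = 3), a log2FC of -0.50 (limma adjusted p = 0.00627), but exons of *NR2C2* on the other strand cover 16.7% of its transcript, so its value is uncertain. *MRPS17*, *MRPS9*, *MRPS2*, *MRPS11* and *MRPS15*, all of bacterial descent, fell by 0.43, 0.43, 0.42, 0.40 and 0.30 on the log2 scale. Exons of *MRPS9-AS1*, itself at a mean value of only 0.0855, cover 24.0% of the *MRPS9* transcript. The call of *MRPS17*, at values from 13.6 to 19.3 with scrambled siRNA and from 11.8 to 12.4 with *DUSP6* siRNA, was lost in 6 of 14 alternatives, and those of *MRPS9*, *MRPS2*, *MRPS11* and *MRPS15* in 1, 2, 3 and 4.

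*MRPL46* and *MRPS11* lie head to head on chromosome 15, the former on the minus and the latter on the plus strand, with 319 bases between them. This pair was looked for after the values were known. *MRPS11* had 39.0, 33.0 and 29.8 with scrambled siRNA and 25.3, 25.9 and 24.6 with *DUSP6* siRNA (limma adjusted p = 0.0197). For both genes of the pair the *DUSP6* siRNA libraries all lay below, as they did for 31.1% of all genes tested.

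The 5 rises were split over both subunits. *MRPL54* (Entrez gene 116541, chromosome 19 from 3762682 to 3767565), a mitochondria-specific large-subunit protein, had the largest. It was at 12.8, 16.8 and 22.4 with scrambled siRNA and at 27.6, 28.8 and 28.9 with *DUSP6* siRNA. The scrambled siRNA libraries were widely spaced and the *DUSP6* siRNA libraries close together, with no overlap. The log2FC was 0.72 (SE 0.17, limma adjusted p = 0.00903), and it ran from 0.53 to 0.91 over the alternatives. *MRPS31* (Entrez gene 10240, chromosome 13 from 40729128 to 40771190), a small-subunit protein without a bacterial counterpart, rose from 29.5, 28.5 and 24.1 to 37.1, 40.6 and 37.7 (log2FC 0.48, SE 0.11, limma adjusted p = 0.00619). Both were called under all 14 alternatives. The pseudogene row *MRPS31P5*, at values from 7.98 to 12.4, was higher as well (log2FC 0.33, limma adjusted p = 0.0456), so reads may have been split here too and both values are uncertain.

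*MRPL2*, the counterpart of the bacterial L2 protein, had 29.3, 24.0 and 33.0 with scrambled siRNA and 36.9, 36.6 and 37.3 with *DUSP6* siRNA (log2FC 0.36, limma adjusted p = 0.0373). *MRPL44*, which carries a ribonuclease III-like domain, rose from 34.2 ± 1.13 to 41.4 ± 2.10 (both SD, n = 3), a log2FC of 0.27 (limma adjusted p = 0.0370). Neither call was firm, since that of *MRPL2* was lost in 6 and that of *MRPL44* in 5 of 14 alternatives, the replicate block among the latter (adjusted p = 0.0811).

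**Figure D3:**
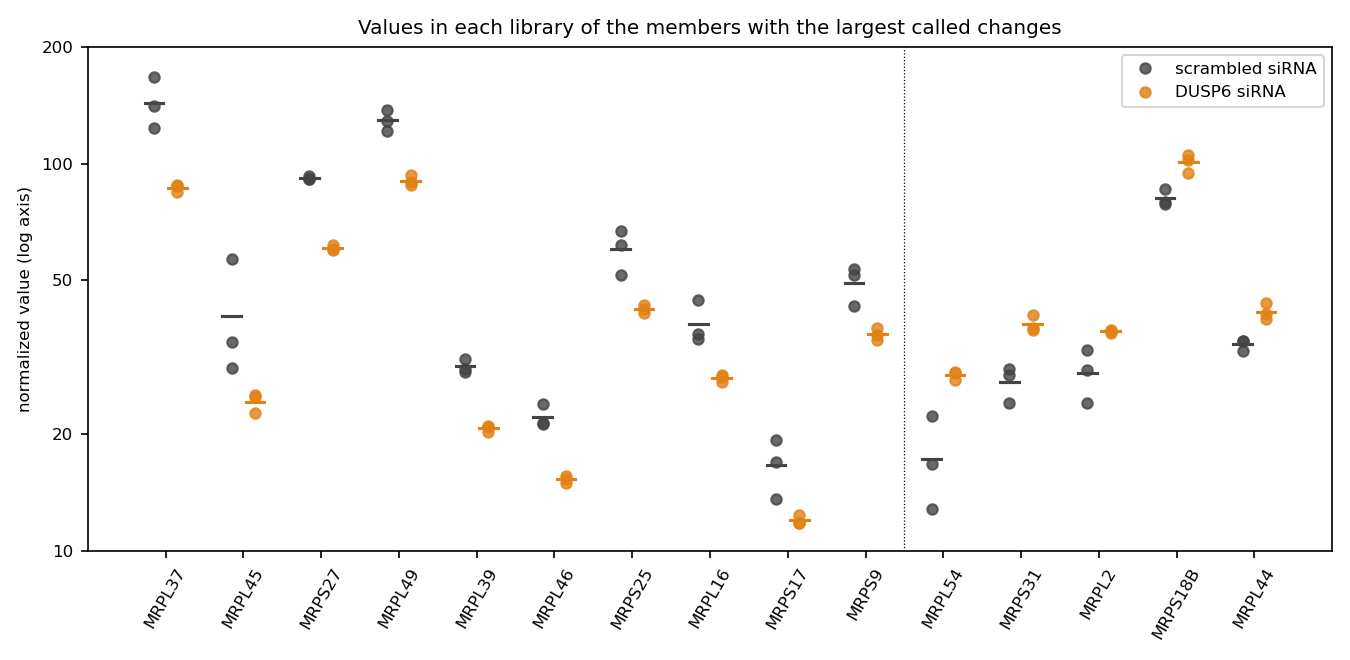
Normalized value in each library (y axis, log scale) of the 10 MRP genes with the largest called falls (left of the dotted line) and of the 5 called rises (right of it). Points are libraries and short lines are means of 3. Groups that do not overlap were part of the rule that chose these 15 genes.

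The promoters of 5 of these genes are shown because 4 are those of the largest called fall and the largest called rise in each subunit and the other, that of *MRPL46*, is from the head-to-head pair. The 250 bases before the start of each gene are given 5′ to 3′ from RefSeq on GRCh38.p14, with matches on either strand to 6 motifs in capitals: the ETS motif CCGGAAG, the SP motif GGGCGG, the NF-Y motif CCAAT, the E-box CACGTG, the YY1 motif AAGATGGCG and a longer NRF1 motif. The *MRPL46* promoter, which lies in the gap to *MRPS11*, has no match.
MRPL37, chr1:54199917-54200166, plus strand: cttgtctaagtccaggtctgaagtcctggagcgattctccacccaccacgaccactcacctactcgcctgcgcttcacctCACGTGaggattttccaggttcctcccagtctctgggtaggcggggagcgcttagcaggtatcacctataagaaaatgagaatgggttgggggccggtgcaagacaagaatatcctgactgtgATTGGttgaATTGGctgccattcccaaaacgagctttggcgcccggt
MRPS27, chr5:72320241-72320490, minus strand: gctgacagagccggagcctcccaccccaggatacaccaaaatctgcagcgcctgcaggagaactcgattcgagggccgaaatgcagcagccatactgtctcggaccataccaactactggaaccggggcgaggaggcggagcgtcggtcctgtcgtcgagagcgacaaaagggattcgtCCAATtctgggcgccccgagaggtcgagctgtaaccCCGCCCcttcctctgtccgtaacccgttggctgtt
MRPL46, chr15:88467389-88467638, minus strand: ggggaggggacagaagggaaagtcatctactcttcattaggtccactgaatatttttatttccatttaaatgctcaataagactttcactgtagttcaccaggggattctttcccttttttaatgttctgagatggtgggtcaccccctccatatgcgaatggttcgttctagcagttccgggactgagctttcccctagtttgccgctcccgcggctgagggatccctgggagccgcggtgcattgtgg
MRPL54, chr19:3762432-3762681, plus strand: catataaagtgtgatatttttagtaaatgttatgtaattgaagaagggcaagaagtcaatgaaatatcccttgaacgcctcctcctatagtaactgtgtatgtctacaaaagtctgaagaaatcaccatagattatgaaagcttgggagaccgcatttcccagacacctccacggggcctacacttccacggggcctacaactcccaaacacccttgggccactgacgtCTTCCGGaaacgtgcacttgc
MRPS31, chr13:40771191-40771440, minus strand: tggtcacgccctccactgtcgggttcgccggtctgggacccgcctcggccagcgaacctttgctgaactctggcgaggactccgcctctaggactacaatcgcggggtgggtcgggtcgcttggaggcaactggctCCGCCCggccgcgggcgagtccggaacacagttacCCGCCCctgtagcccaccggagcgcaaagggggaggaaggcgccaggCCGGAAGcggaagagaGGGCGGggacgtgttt

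The paralogs MRPS18A, MRPS18B and MRPS18C are all related to 1 bacterial protein, S18. MRPS18C keeps its place in the small subunit, MRPS18B sits elsewhere in the small subunit, and MRPS18A belongs to the large subunit, so that the latter pair is counted below as mitochondria-specific. *MRPS18B* rose from 86.1, 78.5 and 79.8 to 94.8, 105 and 102 (log2FC 0.30, SE 0.09, limma adjusted p = 0.0205), and the call was lost without *DUSP6* siRNA replicate 2 or 3, at adjusted p-values of 0.0833 and 0.0923. *MRPS18A* had 40.0, 36.5 and 40.4 with scrambled siRNA and 46.1, 45.3 and 43.2 with *DUSP6* siRNA, and *MRPS18C* had 8.76, 8.18 and 8.85 and then 9.66, 10.6 and 9.80. All 3 paralogs had non-overlapping groups with the higher values after *DUSP6* siRNA, as did 26.7% of all genes tested. Neither *MRPS18A* (log2FC 0.20, limma adjusted p = 0.102) nor *MRPS18C* (0.20, limma adjusted p = 0.141) passed the test. Opposite-strand exons of *RSPH9* cover 60.6% of the *MRPS18A* transcript and those of *ABRAXAS1* 83.6% of the *MRPS18C* transcript, so these 2 values are uncertain. Counting only other genes with a row in the deposited values, 12 MRP genes shared more than 5% of their exon bases. Of these, 2 were called, *MRPS25* and *MRPS9*.

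For the 54 genes that were not called, the log2 fold changes ran from -0.38 (*MRPL3*) to 0.33 (*MRPL50*). Both of these had 1 scrambled siRNA library apart from the others. *MRPL3* had 144, 97.1 and 141 with scrambled siRNA and 99.9, 91.7 and 97.7 with *DUSP6* siRNA (limma adjusted p = 0.0624), and *MRPL50* had 24.96, 19.8 and 11.1 against 21.7, 22.9 and 23.2 (limma adjusted p = 0.274). *MRPL30*, *MRPL32* and *MRPL20* missed the threshold with non-overlapping groups, at adjusted p-values of 0.0556, 0.0534 and 0.0600. *MRPL51* (log2FC 0.00, SE 0.08) and *MRPS33* (0.00, SE 0.13) had the means closest together. Scrambled siRNA replicate 2 held the lowest of the 3 scrambled siRNA values for 50 of the 77 genes, or 64.9%, where it did so for 35.5% of all genes tested. The summed value of the 78 MRP genes was 4399, 3869 and 4409 with scrambled siRNA and 3861, 3921 and 3831 with *DUSP6* siRNA, so scrambled siRNA replicate 2 lay among the *DUSP6* siRNA libraries. This direction depends on scaling the libraries. The TMM factors were 0.881 to 0.968 with scrambled siRNA and 1.08 to 1.09 with *DUSP6* siRNA. With median-of-ratios scaling, 19 MRP genes were lower and 5 higher, with a median of -0.10. As a plain share of all assigned reads the MRP genes took 0.388%, 0.357% and 0.427% with scrambled siRNA and 0.419%, 0.424% and 0.415% with *DUSP6* siRNA, which is no lower. Plain shares also move with other genes: the mitochondrially encoded mRNAs took 16.1%, 15.9% and 10.2% of reads with scrambled siRNA and 9.63%, 10.1% and 9.88% with *DUSP6* siRNA. The part of scrambled siRNA replicate 2 in the calls was tested by leaving it out, which gave the count of 27 lower genes above.

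Per kilobase of the MANE Select transcript, *MRPS7* (counterpart of the bacterial S7 protein) and *MRPL58* were the most abundant, at mean values per kilobase of 208 and 202 with scrambled siRNA and 190.2 and 160 with *DUSP6* siRNA. *MRPS7* varied widely between the scrambled siRNA libraries (262, 188 and 302 before division by length) and was not called, and its level is uncertain, since opposite-strand exons of *MIF4GD*, at a mean value of 65.3, cover 12.4% of its transcript. The lowest tested gene was *MRPL42*, at 3.52 and 3.24 per kilobase, but its selected transcript is 15557 bases long, where the median over the family was 1260, and shorter transcripts of the gene would raise the figure. *MRPS24* was the gene that failed the filter, with 0 to 3 reads in each library. The read-through gene *URGCP-MRPS24*, which has no row under that symbol in the deposited values, covers 90.9% of its transcript. The authors counted with default settings, which assign no read that overlaps more than 1 gene. Whether this bears on the low count of *MRPS24* was not tested. *MRPS36*, now known as a subunit of the 2-oxoglutarate dehydrogenase complex rather than of the mitoribosome, had a log2FC of 0.24 (limma adjusted p = 0.234). Across the 77 genes, fold change went with neither level per kilobase (Pearson's r = 0.04, Spearman's rho = 0.08) nor, by much, with transcript length (r = -0.20, rho = -0.19). The genes share the same 6 libraries, so these coefficients are descriptions.

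By subunit, 11 of 51 large-subunit genes were lower and 3 higher (21.6% and 5.88%), with a median log2 fold change of -0.11. Of the 25 small-subunit genes, 28% were lower and 8% higher, and their median was -0.08. The latter was 0.01 under quantile normalization and 0.05 without scrambled siRNA replicate 3. By descent, 9 of 45 genes with a bacterial counterpart were lower and 1 higher (20% and 2.22%, median -0.15). Of 31 mitochondria-specific genes, 9 were lower and 4 higher (29% and 12.9%, median 0.01). The shares of all genes were 24.7% lower and 19.7% higher. The called changes of the mitochondria-specific genes ran from *MRPL37* at -0.71 to *MRPL54* at 0.72. No test of the difference between these sets was made.

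Of 5 mitoribosomal proteins that carry other symbols, 2 were lower (40%, beside 24.7% of all genes). *DAP3*, a GTP-binding protein of the small subunit, had 212, 188 and 231 with scrambled siRNA and 147, 149 and 153 with *DUSP6* siRNA (log2FC -0.48, limma adjusted p = 0.00388), and *GADD45GIP1*, of the large subunit, had a log2FC of -0.53 (limma adjusted p = 0.0225). The other 3 were not called. Among 27 genes that assemble the mitoribosome or modify its RNA, 4 were higher and 2 lower, or 14.8% and 7.41%, both below the 19.7% and 24.7% of all genes. *MTG1*, a GTPase of large-subunit assembly, rose from 19.5, 15.7 and 36.0 to 48.7, 47.5 and 45.0 (log2FC 1.04, limma adjusted p = 0.00825), with scrambled siRNA replicate 3 nearest to the *DUSP6* siRNA libraries. *MRM2*, a methyltransferase of the large ribosomal RNA, fell by 0.39 on the log2 scale.

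Of 13 factors that run translation on the mitoribosome, 5 were lower (38.5%) and 0 higher. For this list and those that follow, the shares of all genes were 24.7% lower and 19.7% higher. *GFM1*, the elongation factor that moves the ribosome along the mRNA, went from 105, 94.1 and 112 to 70.8, 70.7 and 71.1 (log2FC -0.54, limma adjusted p = 0.00170). The other 4, named after their values were seen, were *TACO1*, *MTRF1* and the initiation factors *MTIF2* and *MTIF3*, at log2 fold changes from -0.47 to -0.30. At an unadjusted limma p under 0.05, 1 of the 13 had a positive fold change, and edgeR called 3 lower and 0 higher. The number lower was also 3 under the replicate block, without the filter on low values, under quantile normalization (where the median of the list was 0.05 in place of -0.12), without scrambled siRNA replicate 1 and without any 1 of the *DUSP6* siRNA libraries. Of 22 genes for mitochondrial aminoacyl-tRNA synthesis, 4 were lower and 3 higher, or 18.2% and 13.6%, again both below the shares of all genes. *LARS2*, which charges mitochondrial leucine tRNA, showed the largest fall of the pathway, from 63.4, 58.0 and 67.8 to 26.1, 23.4 and 23.4 (log2FC -1.34, limma adjusted p = 2.32e-05), and *SARS2*, its counterpart for serine, rose from 13.4, 12.8 and 18.0 to 27.2, 28.6 and 27.01 (0.88, limma adjusted p = 9.75e-04). *LARS2* and *SARS2* thus moved in opposite directions, each by more than any MRP gene. In mitochondrial transcription and RNA processing, 2 of 13 genes were higher and 1 lower (15.4% and 7.69%), with *PNPT1*, a mitochondrial RNA-degrading enzyme, at a log2FC of 0.83 (limma adjusted p = 0.00316) and *SLIRP*, an RNA-stabilizing protein, at -0.45 (limma adjusted p = 0.0157). Of 8 nuclear regulators of mitochondrial genes, 1 was higher and 2 lower (12.5% and 25%). *PPARGC1A*, a coactivator of mitochondrial biogenesis, rose from 6.10, 6.07 and 3.19 to 20.1, 31.3 and 20.9 (log2FC 2.05, limma adjusted p = 2.10e-04). *GABPB1*, the partner subunit of the ETS factor GABPA, went from 80.3, 46.1 and 52.5 to 30.9, 27.7 and 30.1 (-0.95, limma adjusted p = 0.00303), and the other gene called lower, *PPARGC1B*, had a log2 fold change of -0.41.

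The mRNAs that the mitoribosome translates were lower after *DUSP6* siRNA in 10 of 13 cases (76.9%, beside 24.7% of all genes) and higher in 0. Their median log2 fold change was -0.73. At an unadjusted limma p under 0.05, 0 had a positive fold change, and edgeR called 0 higher. The largest called fall was that of *ATP8*, at 1223, 1248 and 646 with scrambled siRNA and 524, 514 and 534 with *DUSP6* siRNA (log2FC -0.92, limma adjusted p = 0.00946). Scrambled siRNA replicate 3 lay much nearer to the *DUSP6* siRNA libraries than to its own group, and the medians of the list showed the same split. These 13 mRNAs took 16.1%, 15.9% and 10.2% of the reads with scrambled siRNA and 9.63%, 10.1% and 9.88% with *DUSP6* siRNA. Leaving out single libraries moved the number called lower from 3, without *DUSP6* siRNA replicate 2, to 13, without scrambled siRNA replicate 3. It was 5 without *DUSP6* siRNA replicate 1, 6 without *DUSP6* siRNA replicate 3, and 6 without either scrambled siRNA replicate 1 or 2. Under quantile normalization it was 3, with a median of -0.04, and without the filter on low values it was 2. Quantile normalization gives every library the same values by rank, and why it gave a smaller median here was not tested. With median-of-ratios scaling 10 were lower and with edgeR 11, both with a median of -0.73. Both scale each library by 1 factor, as the deposited values do, so they are not independent of the main fit.

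For comparison, the cytosolic ribosomal proteins and the nuclear subunits of complex I were taken from the same fit. Of 83 cytosolic ribosomal protein genes, 17 were lower and 1 higher (20.5% and 1.2%), with a median of -0.08. Of 37 complex I genes, 1 was lower and 6 higher (2.7% and 16.2%), with a median of 0.06. These shares were all below the 24.7% lower and 19.7% higher of all genes. Without scrambled siRNA replicate 3, 25 cytosolic genes were higher and 18 lower, and 14 complex I genes were higher. Under quantile normalization, 13 cytosolic genes were higher and 12 lower, and 14 complex I genes were higher. Of all genes, 24.9% were higher and 27.8% lower in the first of these fits, and 23.0% and 22.4% in the second. The difference of the MRP genes from either list was not tested.

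**Figure D4:**
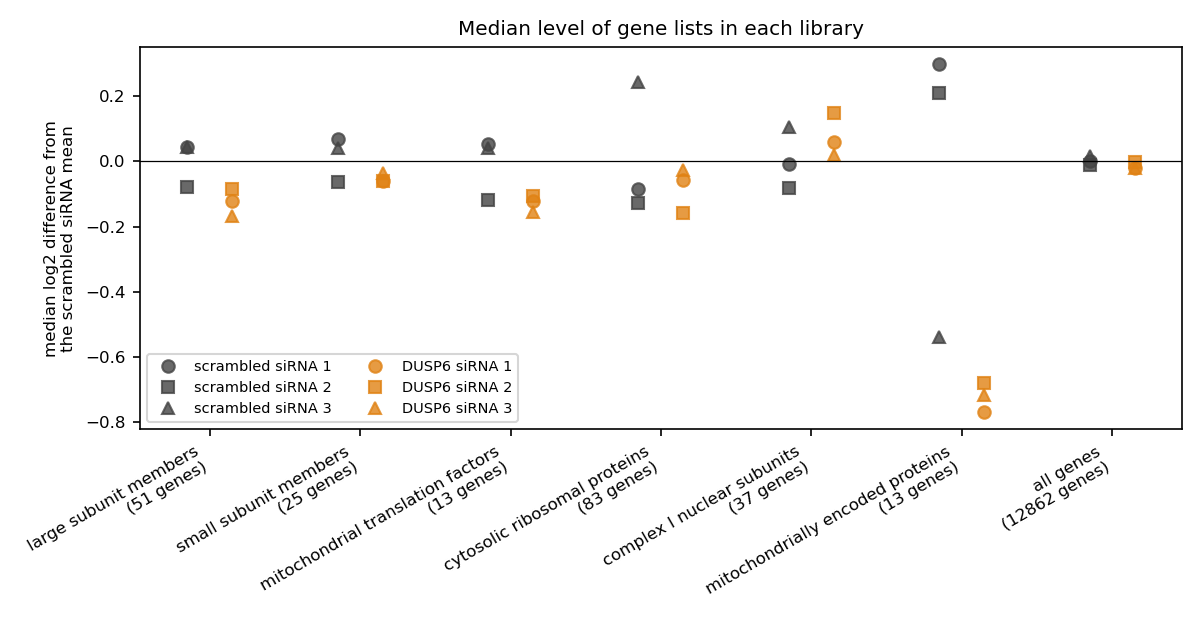
Median over each list (x axis, with the number of genes tested) of the log2(value + 1) difference from the mean of the scrambled siRNA libraries (y axis), 1 point per library. For the mitochondrially encoded mRNAs scrambled siRNA replicate 3 sits at -0.54, close to the *DUSP6* siRNA libraries at -0.77 to -0.68, whereas the MRP genes of both subunits stay between -0.17 and 0.07.

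Promoters from 250 bases before to 50 after the start were at hand for 70 of the 78 MRP genes, and 6 short motifs were searched on both strands, with no motif contained in another. The ETS motif CCGGAAG stood in 29 of 70, or 41.4%, where 10.7% of all 27305 promoters and 20.1% of the 10127 promoters of tested genes held it. The YY1 motif AAGATGGCG stood in 18.6% of the MRP promoters, in 1.85% of all promoters and in 4.12% of those of tested genes. Shares were nearer to the tested genes for the SP motif GGGCGG (61.4% against 69.9%), the E-box CACGTG (10.0% against 10.3%), the NF-Y motif CCAAT (28.6% against 37.3%) and the NRF1 motif (1.43% against 2.47%). The ETS motif was in 3 of the 18 promoters of MRP genes called lower, in 2 of the 4 at hand of those called higher and in 24 of the 47 of those not called. The printed promoters of *MRPL54* and *MRPS31* each hold it, and those of *MRPL37*, *MRPS27* and *MRPL46* do not. These counts describe letters in a window and were not tested.

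**Figure D5:**
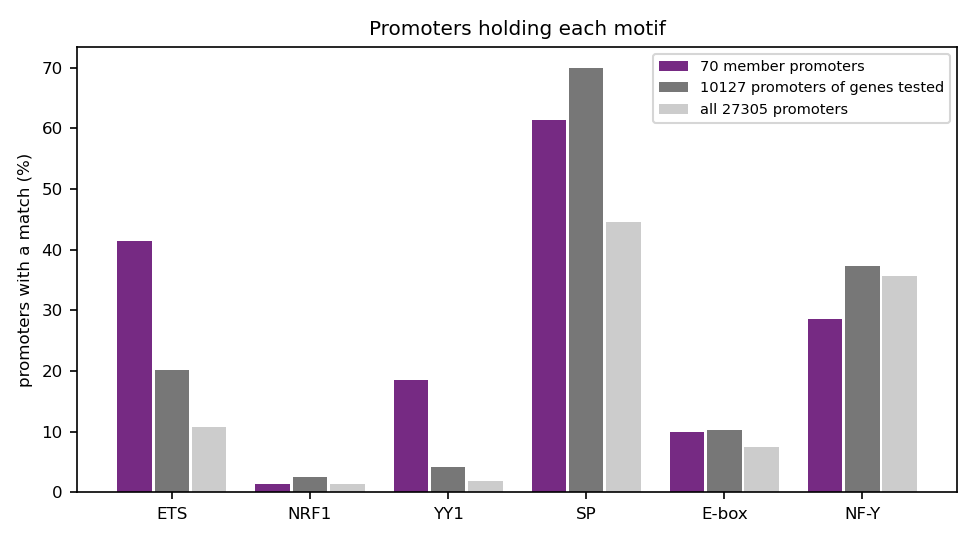
Share of promoters (y axis, percent) with at least 1 match on either strand to each motif (x axis) among the 70 MRP promoters, the 10127 promoters of tested genes and all 27305 promoters. The ETS and YY1 bars of the MRP genes stand above both others.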

How the data were processed

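RNA of 3 scrambled siRNA and 3 *DUSP6* siRNA libraries (stranded mRNA kit) was sequenced. The authors aligned reads to hg38 and counted them over RefSeq genes by the default settings of Rsubread, which do not use strand; the labels also name edgeR. The deposited signal values are reads per 1000000 of the TMM-scaled library size, and whole reads could be recovered from 100% of them (within 0.01). Here limma 3.58.1 (R 4.3.3, trend) was fitted to log2(value + 1) over the 12862 genes with a mean of at least 1, with Benjamini-Hochberg adjustment and two-sided tests; fold changes on this scale understate those of low genes. With 3 against 3 libraries an exact permutation test of 1 gene could not go below 0.1. The script was tested on simulated data. The text names the 10 largest called falls and rises with non-overlapping groups, the MRPS18 paralogs, the extremes of level per kilobase, genes under the filter and, in each other list, the largest called change in each direction. Further genes were named after their values were seen, and the members and lists were chosen with earlier results of these data known. Gene positions are from RefSeq, matched by Entrez gene, and strands, transcript lengths and shared exons are from GENCODE release 44. Exons shared with another gene that has a row in the deposited values were noted above 5% of a transcript. The alternatives were edgeR 4.0.16 on the recovered reads, other pseudocounts, filters and scalings, no trend, a replicate block and leaving out each library.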

Additional observations from a re-analysis of the deposited data

How the results depend on the processing

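Over the 14 alternatives, none of the 23 called MRP genes changed sign, and 9 of them (7 lower and 2 higher) kept their call throughout. The number of MRP genes lower was 8 to 27 and the number higher 2 to 9 when single libraries were left out, as given with the first counts. Their median log2 fold change was -0.13 to -0.05 in those fits. Quantile normalization gave 14 lower, 9 higher and a median of -0.021. edgeR on the recovered reads gave 17 lower and 5 higher, all of them among the genes called by limma. Without the filter on low values there were 16 lower and 4 higher. Of the 101 genes of the other mitochondrial lists, the 13 mitochondrially encoded ones included, 26 were lower and 10 higher. These were 25.7% and 9.9%, beside 24.7% and 19.7% of all genes. The number lower was 14 without the filter and 16 under quantile normalization. Leaving out single libraries gave 12 to 29 lower and 6 to 20 higher. The cause of these shifts was not tested. No pairing of the libraries by replicate number was seen. The correlations of same-numbered libraries were 0.01, 0.09 and -0.08, and not every library correlated best with its own number. With 3 libraries per group this cannot exclude shared handling. With the number as a replicate block, 18 MRP genes were lower and 4 higher, the median was -0.10, and 25 and 8 genes of the other lists were lower and higher. Each tested MRP gene had at least 427 reads in every library, and the part of depth in the calls was not tested. *MRPS24*, at 3 reads or fewer, could not be judged.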

Other observations

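Rows whose symbols extend those of MRP genes were read beside them. The divergent transcript *MRPS30-DT* had 0.164, 0.230 and 0.145 with scrambled siRNA and 0.404, 0.758 and 0.618 with *DUSP6* siRNA, from 11 to 62 reads per library, and lay under the filter on low values, so it was not tested. *MRPS30* itself was not called (log2 fold change 0.09). The antisense row *MRPL20-AS1*, between 15.6 and 23.4, had a log2FC of 0.03 (limma adjusted p = 0.855), and exons of it cover 17.7% of the *MRPL20* transcript, so the value of *MRPL20* is uncertain.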
